A study of Mus musculus with 12 samples.

Results

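miR-101a and miR-101b are 2 closely related mature miRNAs, and both were lower in mouse granulocytes than in promyelocytes in whole cell and in cytoplasmic RNA. The pair was chosen by its values in these samples, a CT that climbs with maturation, so the levels and changes of both miRNAs are given as a description and carry no test. Set against the median of all named assays, which takes out any constant shared by both cards of a sample, both changed by -2.44 to -2.76 on the log2 scale over this step across the whole cell and cytoplasmic samples, after a first step from LSK to promyelocytes in which they stayed within 0.31 of it. Against the median of each member's own card the later step was -1.93 to -2.83 and the earlier -0.38 to 0.34. They are 2 of the 593 assays of the deposited table and 2 of the 270 assays that could be given a miRNA name.

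Bone marrow of C57BL/6 mice was sorted into 4 populations: LSK cells (lineage-negative, Sca1+ and cKit+, a gate that holds the stem cells and early progenitors), promyelocytes, myelocytes and granulocytes. The labels name no deletion or treatment in any group, each population held some cells of other types since sorting was not complete, and the age and sex of the animals are not given in the sources used here. Whole cell, cytoplasmic and nuclear RNA of each population gave 12 samples, 1 per stage and fraction, and 100 ng of RNA of each was read on TaqMan low-density array (TLDA) cards A and B. With 1 sample and 1 well per value there is no replicate spread, and no neighbouring levels can be called different beyond error. The labels give an amount of RNA for every sample, while the study describes its nuclear and cytoplasmic values as based on cell equivalents, so the basis of a level, per RNA or per cell, is not settled for those fractions. In such bulk samples fewer cells with a miRNA and less of it per cell cannot be told apart.

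A mature miRNA guides an Argonaute protein to messenger RNAs that pair with its seed, the bases near its 5′ end, and lowers their stability or translation. miR-101 is best known as a repressor of Ezh2, the histone methyltransferase of Polycomb repressive complex 2, and its loss has been described in several tumours. Mice carry separate genes for miR-101a and miR-101b on different chromosomes, so that the pair is not made from a single shared precursor.

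The mature sequences are shown because the miRNAs share most of their bases but not their seed register. They are taken from RefSeq on build GRCm38.p6, written 5′ to 3′ with bases 2 to 8, the seed, in capitals.
miR-101a-3p: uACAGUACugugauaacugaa
miR-101b-3p: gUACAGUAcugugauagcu
miR-101c: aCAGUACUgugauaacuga
miR-101a-5p: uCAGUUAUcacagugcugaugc
Both guide strands hold the same run of 15 bases, from base 1 of miR-101a and from base 2 of miR-101b. The annotated miR-101b starts 1 base earlier, so its seed is shifted by 1 base against that of miR-101a. Among the 18 aligned bases there is 1 difference, A16G, with positions counted from the 5′ end of miR-101a and the base of miR-101a given first. miR-101a runs on for 3 bases beyond the 3′ end of miR-101b. Among the 1738 mature mouse miRNAs of the RefSeq table, 1 other, miR-101c, had bases 2 to 8 equal to the seed of a member or to the window 1 base to either side of it. Its whole sequence lies within bases 2 to 20 of miR-101a. No assay of the deposited table was named miR-101c, and whether the miR-101a assay also detects it was not tested.

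Mature miR-101a lies at chr4:101346957-101346977 on the minus strand, and its gene overlaps the long noncoding RNA gene E130102H24Rik. Mature miR-101b lies at chr19:29135338-29135356 on the plus strand, and its gene overlaps Rcl1, a protein-coding gene with a role in ribosomal RNA processing. miR-101a-5p, the opposite arm of the miR-101a hairpin, is the strand named miR-101a* on the cards and lies at chr4:101346993-101347014 on the minus strand. miR-101c lies at chr9:3038680-3038698 on the minus strand, and all coordinates are of GRCm38.p6. Whether the card assays were designed on exactly these sequences is not given in the sources used here.

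The CT is the cycle at which the product of a well crosses a fixed threshold, so a lower CT means more template and 1 cycle means a 2-fold difference at full efficiency. In whole cell RNA, miR-101a gave a CT of 30.4 in LSK and 29.6 in promyelocytes, then 30.6 in both myelocytes and granulocytes. miR-101b had a whole cell CT of 27.4 in LSK and 26.6 in promyelocytes, then 27.8 in myelocytes and 27.9 in granulocytes. Both miRNAs thus had their lowest whole cell CT in promyelocytes and their highest in granulocytes, with myelocytes within 0.11 cycles of granulocytes on the raw scale. The climb in CT for which the pair was chosen thus began at promyelocytes in whole cell RNA, not at LSK. The whole cell CT of miR-101a was under 30, the limit used here for counting an assay, in promyelocytes only, while that of miR-101b was under 30 in all 4 stages.

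In cytoplasmic RNA the order was different, since the raw CT climbed at every step from LSK on. Cytoplasmic miR-101a gave a CT of 29.1 in LSK and 30.2 in promyelocytes, then 31.1 in myelocytes and 31.6 in granulocytes. Cytoplasmic miR-101b gave a CT of 26.2 in LSK and 27.1 in promyelocytes, then 27.6 in myelocytes and 28.6 in granulocytes. On the raw scale LSK thus had the most template and granulocytes the least, while with either scaling tried promyelocytes stood highest.

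**Figure D1:**
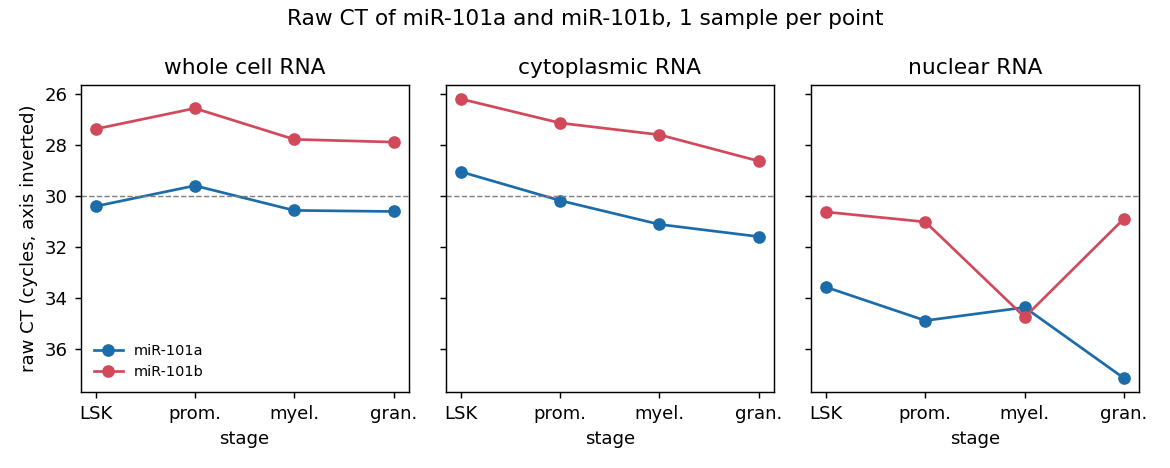
Raw CT (cycles, inverted so that up means more template) of miR-101a in blue and miR-101b in red against stage, in whole cell, cytoplasmic and nuclear RNA, each point being 1 sample. The dashed line is a CT of 30. The 2 lines run in parallel in whole cell and cytoplasmic RNA, while in nuclear RNA miR-101b is at 34.8 in myelocytes and miR-101a at 37.1 in granulocytes.

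The step from promyelocytes to granulocytes went the same way in both fractions. Whole cell log2 changes were scaled by the 3 assays that close card B, through their mean CT, and cytoplasmic changes were taken without scaling. On this scale miR-101a fell by 1.44 (2.71-fold lower) and miR-101b fell by 1.75 (3.37-fold lower). In cytoplasmic RNA miR-101a fell by 1.41 (2.67-fold lower) and miR-101b fell by 1.49 (2.81-fold lower). The direction was downward under each scaling that was tried, from -1.01 to -2.24 for whole cell miR-101a and from -1.09 to -2.25 for whole cell miR-101b. In the cytoplasm the size depended on the scaling more. Scaling by the closing assays gave -4.68 (25.6-fold lower) and -4.76 (27.1-fold lower), and scaling by the mean of named assays gave -2.52 and -2.60. Both cytoplasmic CTs of miR-101a in this comparison lie above 30. The mean CT of the closing assays was lower in nuclear than in cytoplasmic RNA at each stage. It was 20.5 against 26.2 in promyelocytes and 21.9 against 22.9 in granulocytes. What this brings into the cytoplasmic values scaled by those assays was not tested.

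Most of the whole cell change lay between promyelocytes and myelocytes, where miR-101a changed by -0.96 and miR-101b by -1.21 on the scaled log2 scale. From myelocytes to granulocytes the scaled whole cell changes were -0.48 and -0.55, and without scaling only -0.04 and -0.11. In the cytoplasm miR-101a changed by -0.93 up to myelocytes and by -0.48 beyond, while miR-101b changed by -0.46 and then by -1.03. Unscaled, the larger cytoplasmic step was thus the earlier one for miR-101a and the later one for miR-101b. With the mean of named assays as the scaling miR-101b changed by -1.52 and then by -1.08, so that the earlier step was the larger for both. Scaled by the closing assays miR-101b changed by -2.14 and then by -2.62, so that its later step was again the larger.

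Both members passed the 2-fold limit from promyelocytes to granulocytes in whole cell RNA and were among the 29 that did so of 129 named assays, those that had a whole cell CT under 30 at 1 stage or more (22.5%). In cytoplasmic RNA both were again among those that passed, 19 of 128 named assays (14.8%). Since the pair was selected on this contrast, nothing is read from these shares. A deeper whole cell change was found for 15 named assays in the case of miR-101a and for 10 in that of miR-101b. The median log2 change of all assays tested was 1.004 in whole cell and 1.06 in cytoplasmic RNA, and 84 of 129 and 84 of 128 assays were higher in granulocytes. These medians move with the scaling, from 0.50 to 1.43 in whole cell RNA and from -2.20 to 1.06 in the cytoplasm, so that the distance from them is free of a constant shared by both cards, though not of one that differs between cards. That distance was -2.44 for miR-101a and -2.76 for miR-101b in whole cell RNA, and -2.48 and -2.56 in the cytoplasm. Against the named assays of its own card, a comparison chosen after the data were seen, it was -2.56 for miR-101a and -2.22 for miR-101b in whole cell RNA, and -2.83 and -1.93 in the cytoplasm.

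**Figure D2:**
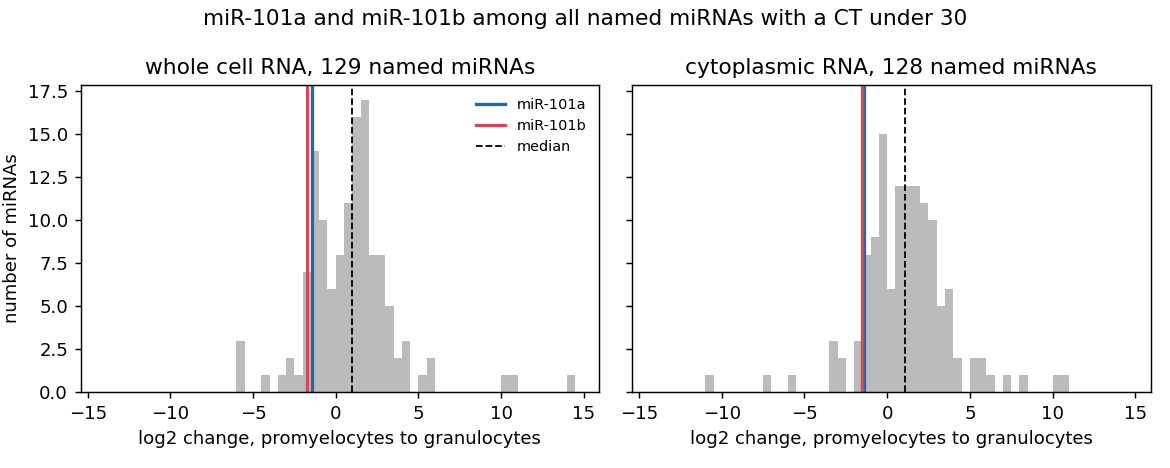
Histograms of the log2 change from promyelocytes to granulocytes (x axis, bins of 0.5) for all named miRNAs with a CT under 30 in at least 1 sample of the fraction, whole cell RNA scaled and cytoplasmic RNA unscaled. The coloured lines mark miR-101a (-1.44 and -1.41) and miR-101b (-1.75 and -1.49), which lie to the left of the dashed medians at 1.004 and 1.06.

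From LSK to granulocytes the fractions gave different sizes. Whole cell miR-101a changed by -0.88 and miR-101b fell by 1.19 on the scaled log2 scale, so that only miR-101b passed 2-fold, as 1 of 22 among the 129 named assays (17.1%). Cytoplasmic miR-101a fell by 2.54 (5.83-fold lower) and miR-101b fell by 2.44 (5.42-fold lower), and were among the 44 of 128 named assays that passed the limit (34.4%). Scaled by the closing assays the cytoplasmic changes were -3.96 (15.5-fold lower) and -3.85 (14.4-fold lower), where 76 of the 128 named assays passed the limit (59.4%). Without scaling the whole cell changes were -0.20 and -0.51, and with the mean CT of 73 named assays as the constant they were -1.71 and -2.02. How far miR-101 lies below its LSK level in granulocytes therefore depends on the scaling in both fractions, while its side was the same under each scaling tried. Against the median of the named assays the distance was -2.17 for miR-101a and -2.48 for miR-101b in whole cell RNA, and -2.32 and -2.21 in the cytoplasm.

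The step from LSK to promyelocytes had no direction that held across fractions and scalings. In whole cell RNA miR-101a changed by 0.56 and miR-101b by 0.56 after scaling, and neither passed 2-fold, a limit that 45 of the 129 named assays passed upward (34.9%). In cytoplasmic RNA miR-101a fell by 1.13 and miR-101b changed by -0.94 without scaling, and 78 of 128 named assays were at least 2-fold lower over this step (60.9%), with a median of -1.25. That median was 0.60 with the closing assays of card B as the scaling, and -0.08 with the mean of named assays. Scaled by those closing assays of card B, the cytoplasmic changes were 0.72 and 0.91, and scaled by the mean CT of 76 named assays they were 0.04 and 0.23. The mean CT of the closing assays was 1.85 cycles higher in cytoplasmic promyelocyte than in cytoplasmic LSK RNA. Against the median of the named assays both fractions placed the pair slightly above it over this step, by 0.14 for each member in whole cell RNA and by 0.12 for miR-101a and 0.31 for miR-101b in the cytoplasm. Against its own card miR-101b had a distance of -0.03 in whole cell RNA and of -0.38 in the cytoplasm.

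**Figure D3:**
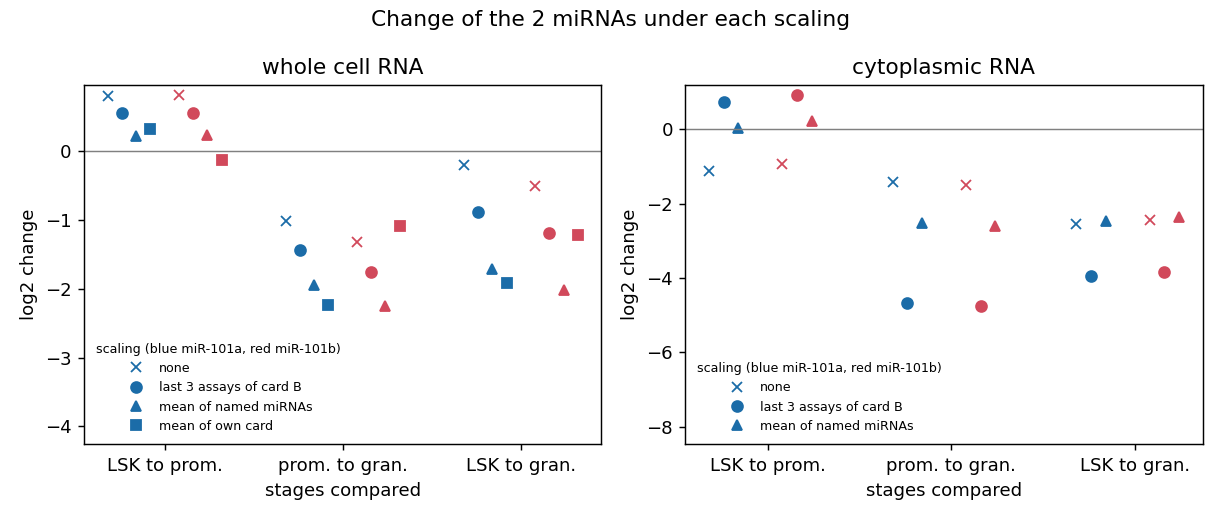
Log2 change of miR-101a (blue) and miR-101b (red) for 3 pairs of stages in whole cell and cytoplasmic RNA, 1 symbol per scaling. All symbols are below 0 from promyelocytes to granulocytes and from LSK to granulocytes, while those from LSK to promyelocytes fall on both sides of 0, from -1.13 to 0.91 in the cytoplasm.

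The shift between the whole cell and cytoplasmic samples over this step was not limited to the pair. In LSK the whole cell CT exceeded the cytoplasmic CT by 1.35 cycles for miR-101a and by 1.18 for miR-101b, and the median over 83 named assays under 30 in both was 1.32, with 82 of the 83 above 0. In promyelocytes the difference was -0.58 for both members, beside a median of -0.60 over 84 assays, with 6 of the 84 above 0. The part of this shift in the miR-101 values was not tested. In myelocytes it was -0.55 for miR-101a and 0.18 for miR-101b around a median of -0.12. In granulocytes it was -0.99 for miR-101a and -0.74 for miR-101b, both below the median of -0.48.

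**Figure D4:**
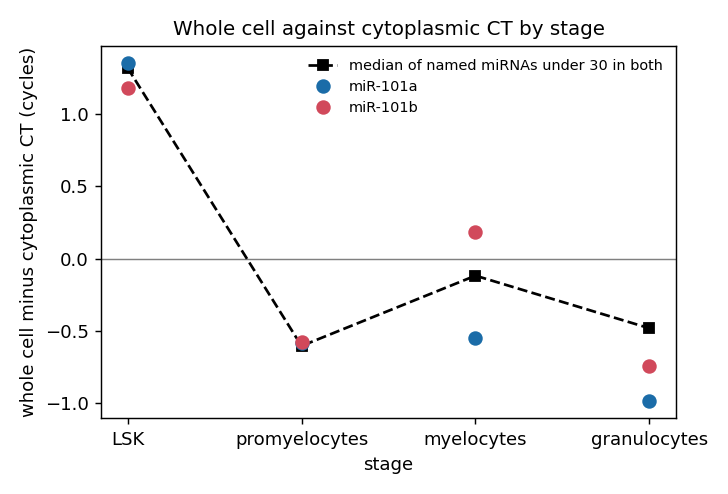
Whole cell minus cytoplasmic CT (cycles) by stage for miR-101a, miR-101b and, as black squares, the median of the named miRNAs with a CT under 30 in both samples. In LSK all 3 lie between 1.18 and 1.35 and in promyelocytes between -0.60 and -0.58, whereas in granulocytes both miRNAs lie below the median.

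The difference between the members needs no scaling across samples, though it can take up a difference between cards, since miR-101a was read on card A and miR-101b on card B. The whole cell CT of miR-101a exceeded that of miR-101b by 3.03 cycles in both LSK and promyelocytes, by 2.78 in myelocytes and by 2.72 in granulocytes. In cytoplasmic RNA it exceeded it by 2.85, 3.04, 3.51 and 2.96 cycles in the same order. The gap varied by 0.31 cycles over the whole cell samples and by 0.66 over the cytoplasmic samples. A CT gap between assays also holds their unequal efficiencies, so it is not a ratio of molecules.

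Profiles were compared over the 8 whole cell and cytoplasmic samples, each fraction centred on its own mean over the 4 stages, by the root mean square (RMS) difference on the log2 scale, from which a constant shared by both cards of a sample drops out, though not one that differs between cards. miR-101a and miR-101b differed by an RMS of 0.20, against a median of 1.18 over all 9453 pairs among the 138 named assays that stayed under 35 in all 8 samples, and 0.243% of the pairs were at most as far apart. No other assay was nearer to miR-101a than miR-101b was, and 1 assay, miR-378, was nearer to miR-101b than miR-101a was. The pair was chosen for a shared pattern, so this closeness is a description, and the assays of 1 sample share its RNA and its cards.

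The 5 assays nearest to the mean profile of the pair were miR-378, miR-92a, miR-130b*, miR-20b and miR-374. The RMS difference from the pair was 0.16 for miR-378, 0.24 for miR-92a, 0.28 for miR-130b*, 0.30 for miR-20b and 0.30 for miR-374, and the next assay followed at 0.31. miR-378, encoded within the gene of the metabolic coactivator PGC-1β, had a whole cell CT of 25.3, 24.3, 25.8 and 25.8 through the stages from LSK on, and of 24.0, 24.6, 25.5 and 26.3 in the cytoplasm. Its change from promyelocytes to granulocytes was -1.97 in whole cell and -1.70 in cytoplasmic RNA, somewhat deeper than that of either member. miR-92a and miR-20b come from related polycistronic clusters of the miR-17 type, which promote proliferation, and changed by -1.18 and -1.56 in whole cell RNA, on both sides of miR-101a. The whole cell changes of miR-130b* and miR-374 over this step were smaller, at -0.68 and -0.88.

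**Figure D5:**
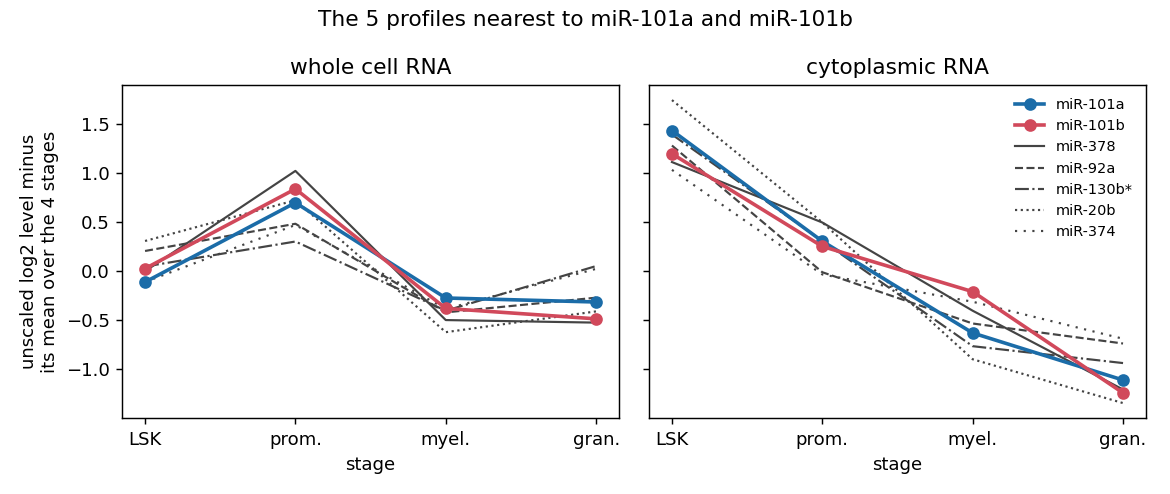
Unscaled log2 level of miR-101a, miR-101b and the 5 nearest assays, each minus its own mean over the 4 stages, in whole cell and cytoplasmic RNA. All 7 lines peak in promyelocytes in whole cell RNA, by raw CT, and decline from LSK on in the cytoplasm.

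The pair was set beside 3 lists of miRNAs, which were drawn up with results of these samples known, so that their directions are descriptions and no independent evidence. The list of miR-17 cluster members and their paralogs, miRNAs linked to proliferation, holds 11 assays. From LSK to promyelocytes 7 of 11 rose and 0 fell by 2-fold in scaled whole cell RNA, and from promyelocytes to granulocytes 7 fell and 1 rose, with a median of -1.12. Of all 129 assays, 34.9% rose and 19.4% fell over the earlier step, while 22.5% fell and 50.4% rose over the later one. Without scaling 2 of the list fell and 3 rose over the later whole cell step, with a median of -0.69, where 12.4% of all assays fell, 58.1% rose and the median was 1.43. Its whole cell extremes over that step, on the scaled log2 scale, were -1.60 for miR-20a and -1.56 for miR-20b at one end, and 1.10 for miR-106b and 0.59 for miR-25 at the other. The scaled whole cell change of miR-101a and miR-101b into promyelocytes, 0.56 each, was smaller than the median of this list, 1.15. The median of all 129 assays was 0.42 over the earlier and 1.004 over the later step.

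In unscaled cytoplasmic RNA 4 of the 11 fell and 1 rose over the earlier step, where 60.9% of all 128 assays fell and 7.81% rose. Over the later step 1 of them fell and 2 rose, where 14.8% of all assays fell and 52.3% rose, and their median was -0.37 beside -1.41 for miR-101a and -1.49 for miR-101b. These counts depend on the scaling, since with that of the whole cell values, by the closing assays of card B, 6 rose and 0 fell over the earlier step and all 11 fell over the later one. With that scaling 34.4% of all assays rose and 14.8% fell over the earlier step, and 71.1% fell over the later one.

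The stem and progenitor list had its median below 0 from LSK to promyelocytes in both fractions under each scaling tried. In scaled whole cell RNA 8 of its 9 assays under a CT of 30 fell by 2-fold over this step, with a median of -2.29, where both miR-101 members stood at 0.56 and 25 of all 129 assays fell (19.4%). In unscaled cytoplasmic RNA 10 of 10 fell, with a median of -4.27, where the members stood at -1.13 and -0.94 and 60.9% of all assays fell. In both fractions miR-125a-5p, miR-125b-5p and miR-130a, and in the cytoplasm miR-99b, were under a CT of 30 in LSK only. A fall of such assays from LSK is in part fixed by that limit, so nothing is read from these counts. From promyelocytes to granulocytes 5 of the 9 fell and 1 rose in scaled whole cell RNA, where 22.5% of all assays fell and 50.4% rose. The whole cell values ran from -4.33 for miR-196b, which is encoded in a Hox cluster, and -3.18 for miR-155 to 0.24 for miR-125a-5p and 3.25 for miR-10b. The CT of miR-125a-5p was 34.8 in promyelocytes and 34.1 in granulocytes, so its 0.24 compares 2 wells well past 30. In the unscaled cytoplasm 4 of 10 fell and 1 rose over this step, with a median of -0.75, where 14.8% of all assays fell and 52.3% rose. The cytoplasmic count was 9 fallen with a median of -4.01 when scaled by the closing assays, where 71.1% of all assays fell, and 8 with a median of -1.85 when scaled by the mean of named assays, where 34.4% did.

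The granulocyte maturation list, from promyelocytes to granulocytes, had 17 of 18 assays up by 2-fold and a median of 1.96 in scaled whole cell RNA, where 50.4% of all assays rose. It ranged there from 0.91 for miR-29a and 1.06 for miR-30e to 2.78 for miR-15a and 2.84 for miR-26b, all on the other side of 0 from the pair. In the unscaled cytoplasm 18 of 18 rose, with a median of 2.54, where 52.3% of all assays rose. With the closing assays of card B as the scaling the sign of the cytoplasmic median turned, as 1 rose and 7 fell with a median of -0.72. Under that scaling the median of all assays moved to -2.20, 71.1% of them fell and 7.81% rose. The members stood at -4.68 and -4.76.

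The labels were set beside marker miRNAs in the whole cell samples. miR-223, the characteristic miRNA of the granulocyte lineage, went from a CT of 24.0 in LSK to 16.4 in granulocytes, and miR-196b, high in primitive cells, from 25.8 to 33.2. miR-150, abundant in lymphocytes, gave a CT of 25.1 in LSK, 28.8 in promyelocytes, then 25.6 in myelocytes and 25.8 in granulocytes, and so was lowest in level where miR-101a and miR-101b were highest. The part of other cells in the miR-101 values was not tested, and the red cell marker miR-451 could not be matched to a single assay.

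In nuclear RNA both members lay above a CT of 30 in all 4 stages. Nuclear miR-101a gave a CT of 33.6 in LSK and 34.9 in promyelocytes, then 34.4 in myelocytes and 37.1 in granulocytes. Nuclear miR-101b had a CT of 30.6, 31.0, 34.8 and 30.9 in the same order. The members parted here, since the gap between them, close to 3 cycles elsewhere, came to 2.94 in LSK and 3.87 in promyelocytes, then -0.38 in myelocytes and 6.26 in granulocytes. From myelocytes to granulocytes miR-101a changed by -2.78 and miR-101b by 3.87 on the unscaled log2 scale. These single wells all lie past the CT of 30 under which the study takes RT-qPCR as reliable, and no nuclear order of stages is read from them. The cause of the parting was not tested.

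The nuclear:cytoplasmic ratio was computed as 2 raised to the cytoplasmic minus nuclear CT, divided by 3, the study's divisor, and its absolute size rests on that divisor and on the unsettled basis of the 2 fractions. miR-101a had a ratio of 0.0145 in LSK and 0.0128 in promyelocytes, then 0.0350 in myelocytes and 0.00712 in granulocytes. miR-101b had a ratio of 0.0155 in LSK and 0.0227 in promyelocytes, then 0.00235 in myelocytes and 0.0700 in granulocytes. All 8 ratios were under 0.1, and 6 of them without the divisor of 3. They include granulocyte miR-101a at a nuclear CT of 37.1. The median ratio of named assays was also under 0.1 at each stage, so this is no trait particular to the pair. The nuclear CT was above the cytoplasmic CT at each stage for both miRNAs. Against the median ratio of named assays with a nuclear CT under 35, both members were lower in LSK (0.0201 over 132 assays) and in promyelocytes (0.0523 over 121 assays). In myelocytes miR-101b was below and miR-101a above the median of 0.0257, and in granulocytes miR-101b was above the median of 0.0635. Nuclear miR-101a in granulocytes lies past the CT of 35 that these medians require, so no place among them is read for it.

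The opposite arm, miR-101a*, was detected in LSK only, with a CT of 36.9 in whole cell and 35.6 in cytoplasmic RNA, and was undetermined, listed at 40, in the other 10 samples. LSK was also the stage with the lowest cytoplasmic CT of miR-101a, but in whole cell RNA miR-101a was lowest in CT in promyelocytes, where its opposite arm was undetermined.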

How the data were processed

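TLDA RT-qPCR was performed on 12 RNA samples. The authors called the CT of each well, a score in cycles, in the SDS and RQ Manager programs, and deposited it without normalization, with undetermined wells at 40. All 12 columns were used, each mapped to its sample by title.

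The 593 deposited assays are numbered. An assay took a name where its cytoplasmic and nuclear CT uniquely equalled an entry of the study's supplementary CT list within 0.0005 (247 assays), else where its scaled whole cell CT differences matched the study's supplementary fold changes within 0.002 cycles (23 assays). Those fold changes equal the scaled CT differences divided by the log2 of 1.5, and were converted before matching, so their printed size differs from the log2 changes given here. miR-101a and miR-101b were both named by CT. The members, lists and comparisons were chosen with earlier results of these data known.

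Log2 changes are CT differences at 2-fold per cycle. The last 3 assays of card B scale the whole cell values because their mean CT gives the constants behind the study's fold changes once these are converted, and the divisor of 3 in the nuclear:cytoplasmic ratio follows the study. The named miRNAs are the pair, its opposite arm and seed relatives, the 5 nearest profiles among assays under a CT of 35, the 2 highest and 2 lowest changes of each list, and markers of cell types. Alternatives changed the scaling, CT limit, fold limit and efficiency. No test between stages was made, since each group holds 1 sample. The code for counts and distances was tested on simulated data, where it recovered the assays that were changed. The simulated shifts were far larger than the simulated noise, and no undetermined well or card difference was simulated, so this checks the code only. Sequences and gene neighbours came from RefSeq (GRCm38.p6). Python 3.11.15, numpy 2.4.6, pandas 2.3.3 and matplotlib 3.10.9 were used. The mRNA arrays and single RT-qPCR assays were not analysed here.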

Additional observations from a re-analysis of the deposited data

Results flagged for a closer look

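From LSK to promyelocytes the unscaled log2 change had opposite signs in whole cell and cytoplasmic RNA for both miRNAs, and this difference was not tested, since each stage and fraction holds 1 sample. The whole cell change exceeded the cytoplasmic change by 1.94 for miR-101a and by 1.76 for miR-101b. The median whole cell minus cytoplasmic CT of the named assays moved in the same way, from 1.32 in LSK to -0.60 in promyelocytes.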

How the results depend on the processing

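Depth cannot be estimated from single wells. Values above a CT of 30 lie past the limit under which the study takes RT-qPCR as reliable. They include 3 of the 4 whole cell and 3 of the 4 cytoplasmic values of miR-101a and all nuclear values of both members. For the changes from LSK to promyelocytes, promyelocytes to granulocytes and LSK to granulocytes in that order, whole cell miR-101a came to 0.81, -1.01 and -0.20 without scaling, to 0.23, -1.94 and -1.71 with the mean CT of named assays, to 0.32, -2.24 and -1.92 with that of its own card, and to 0.52, -1.33 and -0.81 at 1.9-fold per cycle. Whole cell miR-101b came to 0.81, -1.32 and -0.51, to 0.23, -2.25 and -2.02, to -0.13, -1.09 and -1.22, and to 0.52, -1.62 and -1.10 under the same alternatives, so that its first step reversed with the mean of card B, which rests on 15 assays. Cytoplasmic miR-101a came to 0.72, -4.68 and -3.96 with the last 3 assays of card B and to 0.042, -2.52 and -2.48 with the mean of named assays, and cytoplasmic miR-101b to 0.91, -4.76 and -3.85 and to 0.23, -2.60 and -2.37, with the first step reversed in all 4 cases. Nuclear miR-101b reversed from 0.13 to -0.91 between promyelocytes and granulocytes with the mean of named assays under 35, and from -0.26 to 0.89 between LSK and granulocytes with the last 3 assays. Against the median of its own card, an alternative chosen after the data were seen, miR-101b reversed from 0.14 to -0.028 in whole cell and from 0.31 to -0.38 in cytoplasmic RNA between LSK and promyelocytes. List medians, rescaled after the data were seen, reversed between LSK and promyelocytes for the maturation list, to 0.18 in unscaled whole cell RNA and to 0.18 in the cytoplasm with the last 3 assays, and for the proliferation list in the cytoplasm, to 1.12 with the last 3 assays and 0.44 with the mean of named assays. The cytoplasmic maturation list reversed between promyelocytes and granulocytes, to -0.72 with the last 3 assays. The cause of these shifts was not tested. Of the 8 member ratios, 6 stayed under 0.1 without the divisor of 3. The count of named assays that fell in whole cell RNA from promyelocytes to granulocytes was 50 with a CT under 35, 12 at 3-fold, 16 without scaling and 39 with the mean of named assays, and from LSK to granulocytes 42, 13, 13 and 35. Of the 5 nearest assays, 3 were shared with those from whole cell samples only, 3 with those from cytoplasmic samples only and 4 with those by Pearson's r; miR-378 and miR-92a were among the nearest 5 in each. A CT limit of 30 in all 8 samples gave no value, since miR-101a does not pass it.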
